A study of Homo sapiens with 2 samples.

Results

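Gene deserts were taken as the 1 Mb windows of chromosomes 1 to 22, counted from position 0 of GRCh38 (hg38, the build of the peak lists), that no RefSeq protein-coding gene overlapped, with the first and last window of each chromosome left out. Of 2887 windows, 374 were gene-free in this sense, and 267 of them held at least 1 peak. The members were the peaks with a summit in these windows, 9308 peaks in the sh-ctrl library and 14620 in the sh-VNGD library. Together they made up 23928 of the 487265 peaks on chromosomes 1 to 22, or 4.91%. The lists of both libraries held 546555 peaks in all.

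The assay was ATAC-seq, a method that tags accessible chromatin with a transposase which cuts DNA and adds sequencing adapters at the cut. The cells are labelled U2OS, an established human osteosarcoma line. One group was infected with the control hairpin sh-ctrl and the other with the hairpin sh-VNGD. The series is about Vanguard, a long non-coding RNA. Each group had 1 hairpin and 1 library, so differences have no replicate check, no test was made between the groups, and every interval below covers counting error only.

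Gene deserts are long stretches without protein-coding genes. Many border genes for developmental transcription factors or for neuronal adhesion proteins, and several are known to hold distal enhancers that act over long distances. The same rule also collects centromeres, which consist of alpha satellite DNA repeated in arrays, and the short arms of the acrocentric chromosomes, which carry the ribosomal RNA genes. For this reason the gene-free windows were divided into 170 windows in runs that touched a centromere or lay on an acrocentric short arm, of which 63 held a peak, and 204 windows on chromosome arms, all with peaks. This division was chosen after values had been seen.

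The windows lack protein-coding genes but hold 939 RefSeq long non-coding RNA genes and 46 microRNA genes. The following RefSeq promoters (GRCh38.p14, 250 bases before to 50 after the annotated start, 5′ to 3′ on the gene's strand) are shown because a peak overlapped them in both libraries. Among the promoters used here the first 5 had the strongest such peaks on chromosome arms, LINC02987, beside the centromere of chromosome 19, had the strongest in any gene-free window, and LOC105372191 had the ratio furthest from the genome-wide median. Capitals mark matches on either strand to any of 11 short motifs.
MIR4458HG, chr5:8457437-8457736, plus strand: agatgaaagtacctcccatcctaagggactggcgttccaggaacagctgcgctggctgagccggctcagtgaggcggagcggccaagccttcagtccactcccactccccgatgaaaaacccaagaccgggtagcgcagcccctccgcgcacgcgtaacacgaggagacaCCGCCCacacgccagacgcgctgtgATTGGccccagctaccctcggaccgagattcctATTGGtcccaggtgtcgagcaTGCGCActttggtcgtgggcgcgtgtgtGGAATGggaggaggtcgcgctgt
LINC01902, chr18:39841459-39841758, plus strand: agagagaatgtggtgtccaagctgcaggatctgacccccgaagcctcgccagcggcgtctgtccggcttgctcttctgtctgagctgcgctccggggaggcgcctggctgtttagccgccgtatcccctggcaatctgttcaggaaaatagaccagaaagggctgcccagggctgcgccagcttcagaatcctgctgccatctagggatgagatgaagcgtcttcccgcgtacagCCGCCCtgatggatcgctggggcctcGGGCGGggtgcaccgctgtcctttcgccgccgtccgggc
LOC105374974, chr6:23176996-23177295, minus strand: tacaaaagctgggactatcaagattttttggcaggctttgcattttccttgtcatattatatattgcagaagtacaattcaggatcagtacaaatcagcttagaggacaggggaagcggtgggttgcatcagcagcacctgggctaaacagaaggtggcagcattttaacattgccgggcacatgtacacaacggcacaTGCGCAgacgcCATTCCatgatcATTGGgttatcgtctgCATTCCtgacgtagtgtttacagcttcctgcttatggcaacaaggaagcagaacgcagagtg
LOC107986997, chr9:40991782-40992081, minus strand: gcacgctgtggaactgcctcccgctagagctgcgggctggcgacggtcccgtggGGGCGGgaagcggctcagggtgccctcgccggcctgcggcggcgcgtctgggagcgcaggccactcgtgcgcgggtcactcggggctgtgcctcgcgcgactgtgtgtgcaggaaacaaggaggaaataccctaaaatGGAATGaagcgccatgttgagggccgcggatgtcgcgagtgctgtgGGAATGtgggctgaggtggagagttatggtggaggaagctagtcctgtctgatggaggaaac
LOC124902439, chr10:64041170-64041469, plus strand: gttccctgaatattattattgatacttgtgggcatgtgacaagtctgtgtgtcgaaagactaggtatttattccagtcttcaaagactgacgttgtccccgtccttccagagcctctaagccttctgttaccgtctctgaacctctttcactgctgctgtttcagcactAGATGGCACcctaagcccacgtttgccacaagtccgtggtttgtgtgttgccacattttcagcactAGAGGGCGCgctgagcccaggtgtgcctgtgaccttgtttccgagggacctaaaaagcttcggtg
LINC02987, chr19:27793181-27793480, plus strand: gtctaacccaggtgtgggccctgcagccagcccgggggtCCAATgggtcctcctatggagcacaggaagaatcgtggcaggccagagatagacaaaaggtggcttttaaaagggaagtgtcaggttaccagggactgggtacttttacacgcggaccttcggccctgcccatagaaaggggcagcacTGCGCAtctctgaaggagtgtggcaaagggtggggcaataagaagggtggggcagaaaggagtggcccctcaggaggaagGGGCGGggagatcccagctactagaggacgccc
LOC105372191, chr18:73756257-73756556, plus strand: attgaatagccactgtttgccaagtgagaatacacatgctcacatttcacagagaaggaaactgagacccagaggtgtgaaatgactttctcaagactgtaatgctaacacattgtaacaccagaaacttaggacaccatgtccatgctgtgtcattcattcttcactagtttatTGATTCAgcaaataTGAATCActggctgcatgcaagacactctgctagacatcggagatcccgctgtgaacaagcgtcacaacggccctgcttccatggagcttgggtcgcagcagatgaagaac
The motifs searched, on both strands and allowed to share bases, were AP-1 (TGANTCA), the cyclic AMP response element (TGACGTCA), the GC box (GGGCGG), the CCAAT box (CCAAT), the E-box (CACGTG), TEAD (GGAATG), ETS (CCGGAAG), the TATA box (TATAAA), the NRF1 half-site (TGCGCA), YY1 (ATGGCGGC) and a CTCF core (AGANGGCNC). A match describes letters only and is not evidence of binding.

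The MIR4458HG promoter, which faces that of LINC02226 across the same peak, reached 76 and 94 tags at its summit. Here and below a pair of values gives sh-ctrl first and sh-VNGD second, and summit pileup is the number of extended tags over the highest point of a peak. The LINC01902 promoter reached 57 and 76 tags, and the LOC105374974 promoter 62 and 63. LINC02987, which shares its peak with the start of LINC00662, had the strongest of these peaks, with 160 and 134 tags. The LOC124902439 promoter, with 50 tags in each library, held 2 matches to the CTCF core, a motif present in 5.72% of the 33724 promoters of chromosomes 1 to 22 used here. Those of chromosome 8 were not used here, neither for these shares nor for the ranking of peaks. LOC105372191 stood apart with 17 and 54 tags, a log2 ratio 1.48 above the median of all regions (95% interval 0.67 to 2.36). It was picked for this ratio, so the interval does not test it. It was the 1 promoter of the 41 with a peak in both libraries whose interval lay above that median. For 6 the interval lay below it, several of them starts that share the 1 peak of LINC02987 and LINC00662. Among the 6 were LINC02987 (-0.44, -0.78 to -0.10), LOC105371200 with 50 and 29 tags (-0.97, -1.69 to -0.28) and LOC124904968 with 36 and 20 tags (-1.03, -1.90 to -0.21), which all lie beside centromeres. Of all regions with a peak in both libraries and at least 30 tags in either, 6.05% had an interval above the median and 16.9% below it. Of the 41 promoters, 26 reached that height. The LOC105372191 promoter held 2 matches to the pattern searched for AP-1, which leaves the middle base open. They read TGATTCA and TGAATCA, with T and A at that base. The pattern was present in 7.67% of all promoters.

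Of 632 long non-coding RNA promoters in gene-free windows with a sequence in the table, 41 overlapped a peak in both libraries (6.49%, 95% Wilson interval 4.82 to 8.68), 8 one of the sh-ctrl library alone, 2 one of the sh-VNGD library alone, and 581 none. On chromosome arms the share with a peak in both was 4.27% of 586 promoters and in centromere windows 34.8% of 46. In windows with protein-coding genes the share with a peak in both libraries was 25.3% of 11676 promoters. The 41 promoters with peaks fell in 31 regions, since several starts share a peak, and had a mean GC content of 53.8% ± 12 (SD over promoters) against 40.1% ± 9.46 for the 581 without. The NRF1 half-site occurred in 14 of the 41 (34.1%), in 8 of the 581 (1.38%) and in 8.10% of all promoters. GC boxes occurred in 17 of the 41 (41.5%), in 5.51% of those without a peak and in 45.0% of all. TATA boxes ran the other way, with 12.2% of the 41, 33.7% of the 581 and 11.6% of all. CCAAT boxes (43.9%, 36.3% and 34.4% in the same order), TEAD motifs (19.5%, 17% and 14%) and AP-1 motifs (9.76%, 13.1% and 7.67%) differed less. ETS motifs were found in 3 of the 41 and 10.3% of all promoters, and the CTCF core in 1 of the 41. None of the 41 held the cyclic AMP response element, the E-box or the YY1 motif, which 1.87%, 7.18% and 2.97% of all promoters hold. These shares are descriptions, because neighbouring starts share sequence.

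Among microRNA genes, 11 of 46 had a peak in both libraries within 1 kb, or 23.9%, against 23.3% of 1713 microRNA genes in windows with genes. By place these were 3 of 37 on chromosome arms (8.11%) and 8 of 9 in centromere windows. All but 4 of the 11 are MIR6724, MIR3648 and MIR10396A genes of chromosome 21. Several of them have the same pileups, such as 171 and 240 tags, and tags of such repeats cannot be assigned to single copies. The mature sequences of the 4 that do not lie on chromosome 21 follow, from RefSeq, with the seed (bases 2 to 8), which pairs with target messages, in capitals. No 2 of them share a seed.
hsa-miR-663a: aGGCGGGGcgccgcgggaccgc
hsa-miR-1973: aCCGUGCAaagguagcaua
hsa-miR-548x-3p: uAAAAACUgcaauuacuuuc
hsa-miR-7977: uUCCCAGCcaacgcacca
MIR663A, beside the centromere of chromosome 20 and within the host gene MIR663AHG, had 70 and 92 tags. MIR1973 had 48 and 64 tags, MIR548X2 35 and 34, and MIR7977 25 and 28. The 95% intervals of all 4 log2 ratios included 0. MIR622 (19 tags) and MIR1207 (18 tags) had a peak from sh-ctrl alone and MIR3144 (11 tags) from sh-VNGD alone, while 32 of the 46 had none.

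Peaks were sparser in gene-free windows than in windows with genes, in both libraries. The sh-ctrl library had 34.9 ± 17.1 peaks per gene-free window (SD over 267 windows with a peak) and 77.2 ± 29.9 per window with genes (2466 windows). In sh-VNGD the values were 54.8 ± 24 and 108 ± 34.1. The density in gene-free windows was thus 0.452 (95% interval 0.442 to 0.461) of that in windows with genes in sh-ctrl and 0.506 (0.497 to 0.514) in sh-VNGD. On chromosome arms alone the relative densities were 0.509 and 0.581. In the 37 filled windows with no RefSeq record of any kind they were 0.155 and 0.145, and 1 of those 37 lay on a chromosome arm.

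The gene-free windows were sparse but none on a chromosome arm was silent. Arm windows held between 19 and 97 sh-ctrl peaks, with a median of 38, and between 28 and 147 sh-VNGD peaks, with a median of 61. In the 63 centromere windows with a peak the medians were 11 and 20. Single arm windows had 41.1 ± 12.1 sh-ctrl peaks (SD over 115 windows), and windows in runs of 3 or more had 38.2 ± 14.3 (37 windows), a difference within the spread between windows. The nearest neighbouring peak of an arm member was a median of 8.38 kb away in sh-ctrl and 4.89 kb in sh-VNGD, against 4.77 and 3.19 kb in windows with genes.

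**Figure D1:**
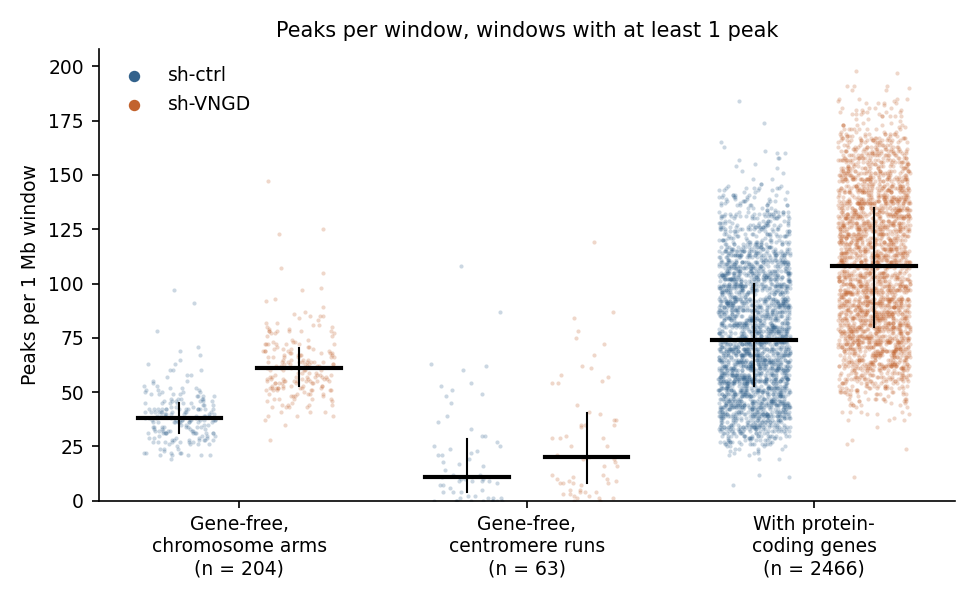
Peaks per 1 Mb window (vertical axis) in sh-ctrl (blue) and sh-VNGD (orange) for gene-free windows on chromosome arms, gene-free windows in centromere runs, and windows with protein-coding genes. Each point is a window with at least 1 peak, the thick line is the median and the thin line spans the quartiles; arm medians are 38 and 61, and the points of gene-free windows lie mostly below those of windows with genes.

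The sh-VNGD library listed more member peaks than sh-ctrl, by a ratio of 1.57 (95% interval 1.53 to 1.61). In windows with genes the ratio was 1.4. The sh-VNGD library also had 1.37 times as many tags kept for peak calling, 31326715 against 22931980. When the longer list was shortened to the length of the shorter one, keeping its peaks of highest significance, the member ratio was 1.05 (at most 1.08 by the same interval). That setting makes the totals equal by construction, so it shows only what remained in gene-free windows relative to the whole list. All 204 arm windows held more sh-VNGD than sh-ctrl peaks, as did 2457 of the 2466 windows with genes that held a peak. Of the 63 centromere windows with a peak, 47 held more sh-VNGD peaks, 13 more sh-ctrl peaks and 3 equal numbers.

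The excess of peaks was larger in arm windows than in windows with genes on each of the 21 chromosomes that had arm windows. The ratio ran from 1.4 on chromosome 1 to 2.01 on chromosome 16, with a median of 1.64, while windows with genes ran from 1.27 to 1.52 with a median of 1.41. The difference was smallest on chromosomes 1 (0.024), 18 (0.037) and 13 (0.037), and no interval was computed for single chromosomes. The chromosome 16 value rests on 3 windows with 103 sh-ctrl and 207 sh-VNGD peaks, and chromosomes 17, 20 and 22 had 1 window each. Among arm windows the largest ratio was in chr9:11000001-12000000, with 23 peaks in sh-ctrl and 68 in sh-VNGD, of which 18 were shared. The arm window closest to balance was chr13:82000001-83000000, with 42 and 44 peaks.

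Member peaks were lower and narrower than those near genes. The median summit pileup was 13 and 15 tags, against 15 and 16 in windows with genes. Peaks of at least 50 tags made up 6.75% of sh-ctrl and 4.86% of sh-VNGD members, against 14.4% and 10.5%. Peaks wider than 500 bp made up 7.21% and 6.58%, against 13.9% and 10.1%. Of the members, 68.5% in sh-ctrl and 66.7% in sh-VNGD had a local background within 2% of the genome-wide floor (1.4 and 1.92 tags), against 38.8% and 40.3% of peaks in windows with genes. The median member lay 737 kb (sh-ctrl) and 736 kb (sh-VNGD) from the nearest protein-coding gene, and the furthest arm member 2.42 Mb.

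Of the sh-ctrl members, 68.5% (67.5 to 69.4, 95% Wilson interval) met a peak of the sh-VNGD list with at least 1 bp in common, and of the sh-VNGD members 43.4% (42.6 to 44.2) overlapped a sh-ctrl peak. In windows with genes the shares were 72.3% and 51.8%. At matched height members were not shared less in every class. Among sh-ctrl peaks of 12 to 14 tags, 64.8% of members and 62.3% of peaks in windows with genes were shared, among those of 15 to 19 tags 78.2% and 72.8%, and among those of 50 to 99 tags 98.5% and 98.3%. For sh-VNGD peaks of 15 to 19 tags the shares were 45.5% and 43.5%. Among sh-ctrl peaks of 20 to 29 tags members were shared less, 77.5% against 83.4%, but the share was 89.6% on chromosome arms and 40.7% in centromere windows, where the chromosome 6 array described below supplied many peaks. At 100 tags or more 97.0% of sh-ctrl members were shared against 99.9% in windows with genes, and the unshared ones all lay in centromere windows, where the share was 89.9%.

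**Figure D2:**
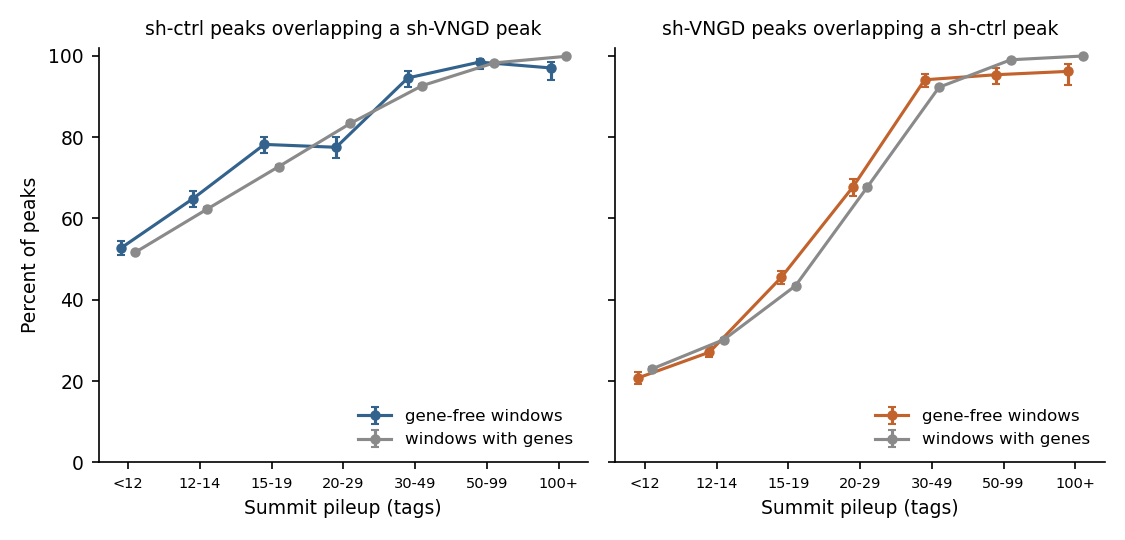
Percent of peaks that overlap a peak of the other library (vertical axis) by summit pileup in tags (horizontal axis), for gene-free windows (coloured) and windows with genes (grey), sh-ctrl peaks on the left and sh-VNGD peaks on the right. Bars are 95% Wilson intervals; the curves run close together, from 52.7% to 97.0% of sh-ctrl members and from 20.7% to 96.2% of sh-VNGD members.

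Merging overlapping peaks of the libraries gave 17491 member regions. Both libraries had a peak in 6274 of them (35.9%). A further 2936 regions (16.8%) had a peak in sh-ctrl only, close to the 16.6% of all regions on chromosomes 1 to 22. The remaining 8281 (47.3%) had one in sh-VNGD only, against 40.9% of all regions. A peak in 1 library only means that the other library had no overlapping call, not that it had no tags there.

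Where both libraries had a peak, the log2 ratio of sh-VNGD to sh-ctrl pileup per kept tag had a median of -0.19 in members, -0.27 in the other regions and -0.26 in all. The sign of these medians depends on depth scaling: the member median was 0.36 with total tags read as the scale and 0.26 with none. The member median was 0.08 higher than that of the other regions under each scale (0.08 to 0.11 by the order-statistic interval of the member median). Against windows with genes at matched height, the difference was 0 among regions with a mean pileup under 15 tags and 0.11 at 30 to 49 tags, and against peaks outside genes in those windows it was 0.07 at 30 to 49 tags. Over all heights the difference from other regions was not present when fold enrichment over the local background was used in place of pileup (-0.09 in members and a difference of 0). At a mean pileup of 50 to 99 tags the fold enrichment ratio was -0.30 in members and -0.15 in windows with genes, while the local background ratio was 0.11 and -0.29. Without a control library the local background is taken from the tags around the peak, neighbouring peaks included. At this height, then, peaks near genes were lower in sh-VNGD in both pileup and local background per kept tag, and those in gene-free windows in pileup only.

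**Figure D3:**
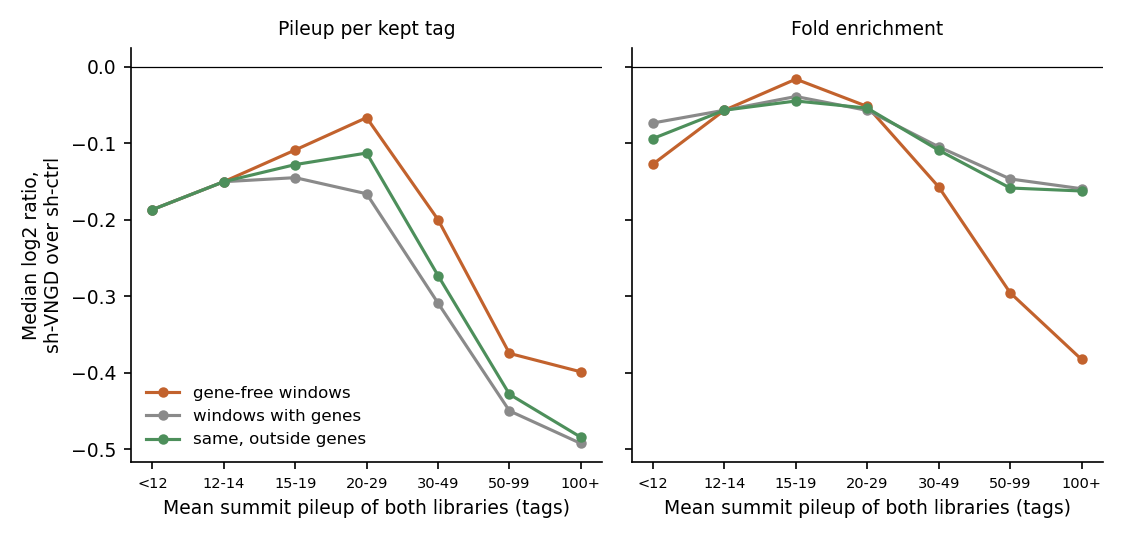
Median log2 ratio of sh-VNGD over sh-ctrl (vertical axis) by mean summit pileup of both libraries in tags (horizontal axis), from pileup per kept tag on the left and from fold enrichment on the right, for gene-free windows (orange), windows with genes (grey) and peaks outside genes in those windows (green). On the left the members lie at or above the other classes, and on the right the members of 50 tags or more lie below them (-0.30 against -0.15 at 50 to 99 tags).

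Large changes were uncommon and ran slightly upward. Relative to the median of all regions, 173 of the 6274 member regions (2.76%) had a log2 ratio at least 1 higher, against 2.25% of all regions, and 111 (1.77%) at least 1 lower, against 2.96%. Among the 1580 member regions with 30 tags or more in either library, 95 (6.01%) were at least 1 higher, against 3.03% of all such regions, and 62 (3.92%) at least 1 lower, against 5.66%. Members therefore had a larger share of raised regions and a smaller share of lowered ones than the genome as a whole, in 1 library against 1.

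**Figure D4:**
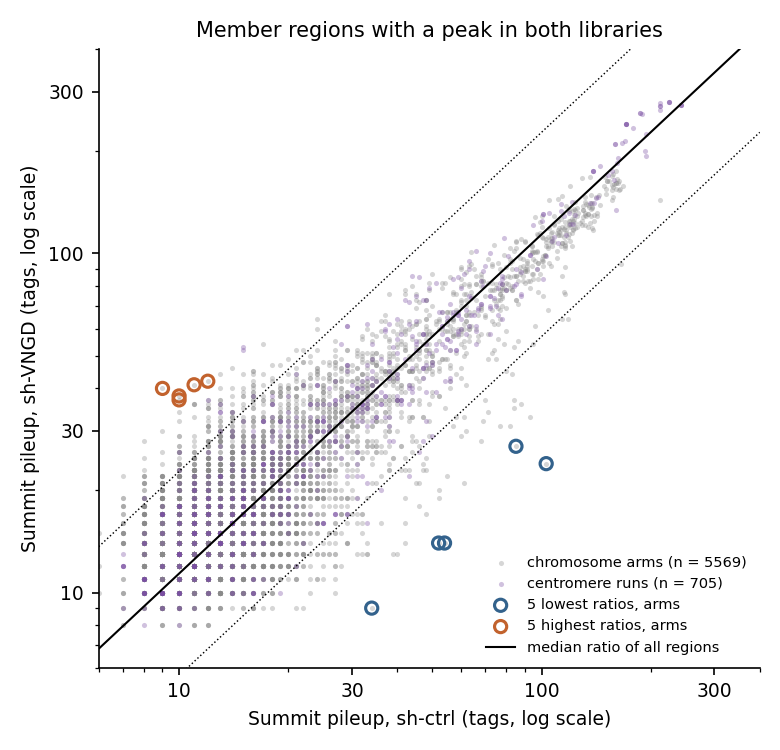
Summit pileup in tags in sh-ctrl (horizontal axis, log scale) and sh-VNGD (vertical axis, log scale) for the 6274 member regions with a peak in both libraries, 5569 on chromosome arms (grey) and 705 in centromere runs (purple). The solid line is the median ratio of all regions and the dotted lines lie 1 log2 unit to either side; circles mark the 5 lowest (34 to 103 tags in sh-ctrl) and 5 highest (37 to 42 tags in sh-VNGD) ratios on arms.

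Among the 10 strongest member regions on chromosome arms, 1 had an interval of the log2 ratio that left out the median of all regions. The region chr8:128024945-128025931, inside PVT1, a long non-coding RNA gene next to the MYC oncogene, had 212 and 144 tags. Relative to all regions the log2 ratio was -0.74 (95% interval -1.06 to -0.43). The region chr5:25119008-25119925, 474 kb from the cadherin gene CDH10, had 160 and 175 tags. The region chr6:94203298-94204117, 784 kb from the ephrin receptor gene EPHA7, had 164 tags in each. For 9 of the 10 strongest arm regions the interval of the relative log2 ratio included 0, and these 10 lay 250.1 to 1219.9 kb from the nearest protein-coding gene. The arm regions were listed after values were seen, because the 10 strongest member regions of all lay on chromosome 21 at 8212477 to 8463094, in or near the ribosomal RNA genes, with 212 to 242 and 265 to 280 tags.

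The 5 regions with the lowest ratio all lay on chromosome arms, and in each the interval stayed below 0. They were picked as the most extreme of 1580 regions by the same tag counts, so their intervals do not test the change. The most lowered was chr13:90838675-90839609, 41.0 kb from the non-coding gene LOC105370311 and 559 kb from GPC5, which encodes a glypican, a cell-surface proteoglycan. It had 103 and 24 tags, a relative log2 ratio of -2.29 (-2.99 to -1.64). The region chr15:95875277-95875748, 450.5 kb from NR2F2, which encodes an orphan nuclear receptor of mesenchymal and venous development, had 54 and 14 tags (-2.13, -3.10 to -1.27). The region chr3:106447241-106448139, inside LOC101929485, had 34 and 9 tags. The region chr5:125043732-125044330, inside LOC101927421 and 295 kb from the zinc finger gene ZNF608, had 52 and 14 tags. The region chr4:160318947-160319883, 959 kb from RAPGEF2, had 85 and 27 tags. Local background in sh-ctrl was between 2.24 and 6.44 tags at these 5 sites, well under their pileups.

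The regions with the highest ratio had weak peaks in sh-ctrl, at 9 to 15 tags, and intervals above 0. They were picked by ratio in the same way, so these intervals too are no test. The region chr14:97273549-97273873, 392 kb from VRK1, which encodes a nuclear serine/threonine kinase, had 9 and 40 tags, a relative log2 ratio of 1.97 (0.90 to 3.19). The region chr3:145094642-145094971 had 10 and 38 tags, chr8:137258952-137259271 11 and 41, and chr3:104596636-104596915 10 and 37. The fifth, chr22:11893713-11894017 on an acrocentric short arm, had 15 and 53 tags. Among arm regions the next was chr10:64430791-64431068 with 12 and 42 tags. That region lies inside LOC124902439, the gene whose promoter, printed above with its pair of CTCF core matches, had equal pileups of 50.

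In the stretch of ribosomal RNA genes between chr21:8204727 and chr21:8458511, sh-ctrl had 49 and sh-VNGD 57 peaks, and of these 42 and 37 overlapped a peak of the other library. The median pileup was 171 and 131 tags over a median local background of 96.2 and 51.8. These medians cover different sets of called peaks, so they do not compare the libraries at the same sites. At the 10 strongest member regions, which lay in or near this stretch, unscaled pileup was 212 to 242 and 265 to 280 tags. Local background there was 45.9 to 138 and 50.4 to 196 tags. Both were higher in sh-VNGD at each of those regions, before scaling for depth. The 5 highest single-library peaks of each library were found there, at up to 207 and 260 tags. On chromosome arms the highest sh-ctrl peaks without a sh-VNGD call were chr8:128139837-128140258 with 57 tags, chr13:82292393-82292733 with 44 and chr2:35529562-35529969 with 39. The highest sh-VNGD peaks without a sh-ctrl call were chr4:131727587-131727791, chr8:128117983-128118425 and chr8:128660996-128661301, with 39 tags each. The last 2 and the first sh-ctrl peak lie in the same window, chr8:128000001-129000000 beside MYC, which held 60 sh-ctrl and 78 sh-VNGD peaks. Single-library peaks on arms thus reached at most 57 and 39 tags, far under the 212 and 175 tags of the highest arm peaks.

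The 204 arm windows formed 153 runs, 115 of a single window, 26 of 2 and 12 of 3 or more. All 153 held more sh-VNGD than sh-ctrl peaks, like nearly all windows with genes. At least 1 region with a mean pileup of 50 tags or more was present in 135. The highest sh-ctrl peak of a run was between 21 and 212 tags with a median of 110, and the highest sh-VNGD peak between 27 and 175, also with a median of 110. The longest run, chr4:32000001-36000000 between the protocadherin gene PCDH7 and ARAP2, had 111 sh-ctrl and 176 sh-VNGD peaks over 4 windows. Others of 3 windows were chr1:104000001-107000000 (AMY1C to PRMT6; 173 and 220 peaks), chr1:187000001-190000000 (PLA2G4A to BRINP3; 157 and 206), chr2:81000001-84000000 (CTNNA2 to SUCLG1; 128 and 191) and chr4:58000001-61000000 (82 and 165).

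The genes next to the arm runs were set against lists of adhesion and developmental genes. Of 68 adhesion and synapse genes, 40 (58.8%) flanked an arm run, among them the protocadherins PCDH7, PCDH9, PCDH10, PCDH17, PCDH18 and PCDH20, the cadherins CDH6, CDH8, CDH9, CDH10 and CDH18, and the teneurins TENM2, TENM3 and TENM4. Of 66 developmental transcription factor genes, 12 (18.2%) did so, among them BCL11B, IRX1, MEF2C, MYC, NR2F1, NR2F2, POU3F3, SOX9, TFAP2A and ZEB2. Of all 19122 protein-coding genes, 291 (1.52%) did. The lists were drawn up knowing that such genes often border deserts, so the shares describe the windows and are not evidence about the genes.

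Like every other arm run, all 12 runs beside developmental genes held more sh-VNGD than sh-ctrl peaks. They held between 26 and 84 in sh-ctrl and between 41 and 137 in sh-VNGD. The window next to IRX1, a homeobox gene, had 51 and 85 peaks with highest pileups of 156 and 169 tags. The window between KCNJ2 and SOX9, the factor of cartilage formation, had 39 and 68 peaks, with 124 and 119 tags. The run next to ZEB2, a repressor of epithelial genes, had the largest excess of the 12, 49 and 103 peaks, and was the 1 run with a median log2 ratio above 0, at 0.07. The other 11 had medians below 0, like the genome. The 46 runs beside adhesion genes held 1.60 times as many sh-VNGD as sh-ctrl peaks, the same ratio as all arm windows.

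With both libraries counted together, the most peaks were in chr7:68000001-69000000, with 91 and 147. Next came chr21:8000001-9000000 with the ribosomal genes (87 and 119), then chr1:106000001-107000000 (97 and 107), chr10:36000001-37000000 (71 and 125) and chr11:39000001-40000000 (69 and 123). In sh-ctrl alone the fullest gene-free window was chr6:59000001-60000000, a centromere window with 108 and 10 peaks. The chromosome 1 window differed from the other arm windows named here in its median local background, 2.30 and 4.0 tags against a floor of 1.4 and 1.92, and had the smallest excess. Whether either window is present in more copies in these cells was not tested.

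Centromere windows gave the largest disagreements between the libraries. In the centromere array of chromosome 6, sh-ctrl had 155 peaks at chr6:58556556-59829779 and sh-VNGD had 13, and only 4 of each overlapped. The sh-ctrl pileups there were between 15 and 26 tags (median 22) over a median local background of 4.88, which is 3.48 times the genome background of that library. The 13 sh-VNGD peaks had 22 to 33 tags (median 28) over a background of 9.80, or 5.11 times. Coverage between called peaks was not measured. The median fold enrichment was 3.89 in sh-ctrl and 2.72 in sh-VNGD.

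The gaps between sh-ctrl peaks of this array, from 2548 to 27494 bp, fell near multiples of 1 length. Neighbouring summits were most often exactly 3057 bp apart, which held for 15 of 154 gaps. Within 5% of that length, 42 gaps were 1 unit long and 46 were 2 units long, and 141 gaps (91.6%) lay that close to a whole multiple. Such bands cover 10% of all lengths. The length itself was taken from these gaps. The sh-VNGD peaks had 3 of 12 gaps near a multiple, and in the chromosome 20 array described next the share was 7 of 76 (9.21%). A repeat length of the chromosome 20 array's own was not sought, so whether its peaks are evenly spaced was not tested. The peaks were short as well, with a median length of 202 bp. Alpha satellite arrays are built of higher-order units repeated in a row, and tags from 1 copy can map to another, so that copies cannot be told apart here.

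**Figure D5:**
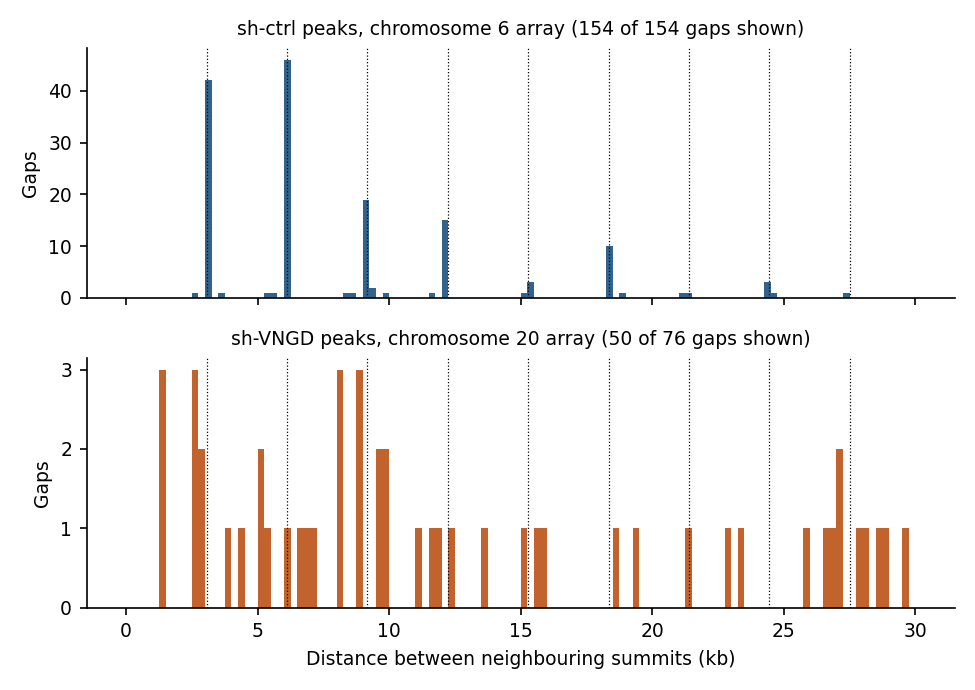
Distance between neighbouring peak summits in kb (horizontal axis) and number of gaps (vertical axis) for sh-ctrl peaks of the chromosome 6 centromere array (top) and sh-VNGD peaks of the chromosome 20 centromere array (bottom, gaps up to 30 kb). Dotted lines stand at multiples of 3057 bp, the commonest gap of the top panel. Within 5% of a multiple lie 141 of 154 gaps in the top panel and 7 of 76 in the bottom array, for which no repeat length of its own was sought.

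Other arrays had peaks in 1 library only. In sh-VNGD, 77 peaks of 11 to 16 tags lay at chr20:26438148-28498760 and 19 peaks of 10 to 13 tags at chr4:50023577-50990925, where sh-ctrl had none. In sh-ctrl, 15 peaks of 8 to 11 tags lay at chr17:23201113-24942941, where sh-VNGD had none. Their median local background was near the genome level of their library (1.05, 1.00 and 1.07 times). Windows of the acrocentric chromosomes varied in sharing. At one end, chr13:16000001-17000000 had 21 and 12 peaks with 1 shared and chr21:11000001-12000000 had 24 and 20 with 3 shared. At the other, chr22:11000001-12000000 had 62 and 84 peaks with 43 shared. Over all centromere members, 56.5% of sh-ctrl and 39.9% of sh-VNGD peaks were shared, against 70.4% and 43.8% on chromosome arms.

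Depth differed between the libraries beyond the kept tags: of 51628228 sh-ctrl tags read 56% were removed as repeats of a position, and of 48164322 sh-VNGD tags 35%. Peaks at gene ends were compared with the cell label. Of 12 mesenchymal and osteosarcoma markers, 5 had a peak within 1 kb of an annotated gene end in the first library and 7 in the second, with medians of 12 and 19 tags, and CDH11, RUNX2, SPARC, THY1 and VIM had none in either. Within the gene bounds 11 of the 12 had peaks in each library, with medians of 31 and 44 tags, while THY1 had none. In sh-ctrl the values ran from COL1A2 (11 tags) to RUNX2 (131). In sh-VNGD they ran from PRRX1 (15 tags) to COL5A1 (111). Of 8 keratinocyte and epithelial markers, 6 and 8 had an end peak, with medians of 147.5 and 116 tags, led by KRT8 and KRT18. These genes had the same values, 166 and 174 tags, and whether 1 peak was counted for both was not examined. The keratinocyte genes had low end peaks, with 11 and 32 tags at TP63. KRT5 (20 tags) and KRT14 (11 tags) had one in sh-VNGD alone. All these medians cover only genes with a peak, so KRT5 and KRT14 enter only the sh-VNGD ones. Within the gene bounds the medians were 159.5 and 123. Blood markers had end peaks in 5 and 6 of 7, with medians of 67 and 39 tags. Neuronal markers had them in 3 and 2 of 5, with medians of 41 and 41.5 tags. End peaks of both lists thus had higher medians than those of the mesenchymal list. Within the gene bounds the medians were 59 and 47 for blood and 52 and 43 for neuronal markers. How far these values bear on the identity of the cells was not tested.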

How the data were processed

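Accessibility was measured by ATAC-seq in 1 sh-ctrl and 1 sh-VNGD library of U2OS cells. Per the file headers, the authors called peaks in each library with MACS 2.1.0.20150731 without a control, with tags shifted by 100 bp and extended to 200 bp, 1 tag kept per position, a q cutoff of 0.05 and a local background window of 10 kb. The submitters' processing notes name MACS2 2.1.2, Bowtie2 2.2.5 and deepTools, and the builds hg38 and GRCh38.p13. No source used here gives how reads with several matches in the genome were handled. The deposited summit pileup is a signal in tags, not scaled for depth. The deposited fold enrichment is a ratio, (pileup + 1) over (local background + 1), and was used to derive the local background. The deposited −log10 q values were used to rank peaks.

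Python 3.11.15 with NumPy 2.4.6, pandas 2.3.3 and SciPy 1.17.1 was used. Peaks were assigned to windows by summit. Gene bounds, biotypes and sequences came from RefSeq tables of GRCh38.p14. That table lists some genes of unlocalized scaffolds under a chromosome number, which touched only windows without peaks. Peaks overlapping by at least 1 bp were merged, and the highest pileup of each library was compared per kept tag. Kept tags were 22931980 and 31326715. Intervals are 95% Clopper-Pearson intervals for ratios of tags or numbers, Wilson intervals for shares and order-statistic intervals for medians, and cover counting error only. With 1 library per group no test was made. The overlap, window and ratio code was tested on simulated data.

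Regions named are the 10 of highest mean pileup, the 5 highest and 5 lowest ratios among those with at least 30 tags in either library, the 5 highest peaks found in 1 library, the 5 longest runs, the 5 fullest windows and the genes beside runs. Where repeats filled a list, the same list was made for chromosome arms. The members, lists, motifs and arrays were chosen with earlier results of these data known. Other thresholds, list lengths, windows, gene classes, overlaps and scalings were tried. Chromosomes X and Y were not used here. Sequences of peaks were not analysed here. Some of the genes beside runs are not reported here.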

Additional observations from a re-analysis of the deposited data

How the results depend on the processing

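Across 13 settings and 68 recomputed values, 28 stayed within the counting error of the value reported, 38 moved beyond it and 2 changed sign. With peaks of a −log10 q of at least 10, the ratio of member numbers was 1.30, relative densities were 0.373 and 0.423 (sh-ctrl, then sh-VNGD, here and below), shared percentages 70.6 and 53.9, and the median log2 ratio -0.28. With equal numbers of peaks the ratio was 1.05, the sh-VNGD density 0.479, shared percentages 57.3 and 54.0, the median log2 ratio -0.11 and its difference from other regions 0.12. Windows of 500 kb gave densities of 0.495 and 0.563 and shared percentages of 70.4 and 44.3. Windows of 2 Mb gave a ratio of 1.51, densities of 0.360 and 0.385, 64.9% of sh-ctrl members shared and a difference of 0.079. Windows free of every RefSeq gene gave a ratio of 1.31, densities of 0.162 and 0.151 relative to windows with any RefSeq gene, shared percentages of 33.9 and 25.3, a median of -0.19 and a difference of 0.071. Without windows next to an empty one the densities were 0.467 and 0.523. Chromosome arms alone, a choice made after seeing the data, gave densities of 0.509 and 0.581 and 70.4% of sh-ctrl members shared. An overlap of at least 50% of both peaks gave shared percentages of 62.3 and 39.6. Scaling by total tags read gave a median log2 ratio of 0.36 and no scaling 0.26. Fold enrichment gave a median of -0.087 and a difference of 0, and leaving out regions of high local background gave a difference of 0.051. The cause of these shifts was not tested. Windows starting at 500 kb kept each value within counting error.

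With 1 library per group, spread between cultures is unknown and every interval is too narrow as a statement about the hairpins. A peak missing from a list is a call below the threshold, and the lists differ in depth and repeated tags. Repeats of satellite and ribosomal DNA cannot be assigned to single copies. No paired analysis was possible because each group has 1 library.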
